A study of Ovis aries with 22 samples.

Results

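The comparison sets the interventricular septum of 14-day-old lambs against that of fetal sheep at 130 days of gestation, late in ovine pregnancy. Its members are all arrays labelled with these ages, 6 fetuses and 8 lambs, which makes 14 of the 22 arrays of the study; the 8 arrays of fetuses at term were left out of the fit. Fetuses and their ewes received no treatment, the lambs had been born naturally, and no ewe had a disease of pregnancy or was about to go into labour. The design text counts fetuses and lambs, so each array stood for 1 animal, and no genetic change was carried by any group. Sex and breed were not given in the sources used here. Total RNA of the septum was labelled with Cy3 and read on 1-colour Agilent sheep arrays, so each value is a mixture of all cell types of the tissue. In such bulk samples, fewer cells of a type and less RNA per cell cannot be told apart.

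Before birth the heart runs largely on glucose and lactate, at low oxygen and with little circulating fat, and its muscle cells still divide. After birth, milk brings long-chain fatty acids, which are taken up, bound by carrier proteins, passed into mitochondria by the carnitine shuttle and burned. Muscle cells leave the cell cycle, and growth passes from the fetal factor IGF2 to growth hormone and IGF1. The interventricular septum, the wall between both ventricles, is mainly cardiac muscle with vessels, fibroblasts and conduction tissue.

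Levels are given throughout as log2 of the processed signal less that array's 75th percentile, so 0 is the 75th percentile of an array's spots. Each gene has its own probe, so its level is set against other arrays and never against another gene. A change is the lamb mean less the fetal mean on this log2 scale, given with its standard error (SE); a gene was called when its Benjamini-Hochberg adjusted p in limma was under 0.05. The array holds 15008 probes, of which 1591 (10.6%) could be given a gene symbol, 966 symbols in all. These gave 14383 features, 12233 of them bright enough to test, and 792 of the tested features had a symbol. A further 174 named genes were on the array and were too dim in both groups to be tested.

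The lambs and the fetuses were on different slides, and the lambs were scanned on 3 other dates than the fetuses, so age and slide cannot be told apart within any slide. All term arrays were scanned on the date of the 130-day fetuses, and some shared their slides. A term median near that of the 130-day fetuses therefore cannot be told apart from a shared batch. Spike-in spots, which report a fixed amount of added RNA, averaged 6.46 ± 0.10 log2 units (SD, n = 6) in fetuses and 9.05 ± 0.72 (SD, n = 8) in lambs, with no overlap (exact permutation test, two-sided, p = 0.000333). Spots well above background numbered 12687 ± 287 (SD, n = 6) in fetuses and 11394 ± 683 (SD, n = 8) in lambs (exact permutation test, two-sided, p = 0.000999). Both differences ran with age, and their part in the results was not tested. The first principal component held 42.4% of the variance and separated the ages. The second held 19.6% and set lambs 1, 4 and 5 apart from the other 5 lambs; lamb 1 was on slide 5, and lambs 4 and 5 made up slide 6. The fit without these 3 lambs is an alternative added after seeing the data; calls of named genes that it ended or brought are given beside them. Fetus 2 and lamb 8 stood alone from their groups at 3.01% and 4.52% of features respectively, against 0.221% to 1.34% for the other arrays. Of 16 cardiac muscle markers only MYH7, the slow and ventricular myosin heavy chain, and MB, myoglobin, had a named probe, and both were well above background on all 14 arrays. The skeletal muscle markers MYF5, MYH1 and MYH2 were well above background on 0 of the 14 arrays.

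**Figure D1:**
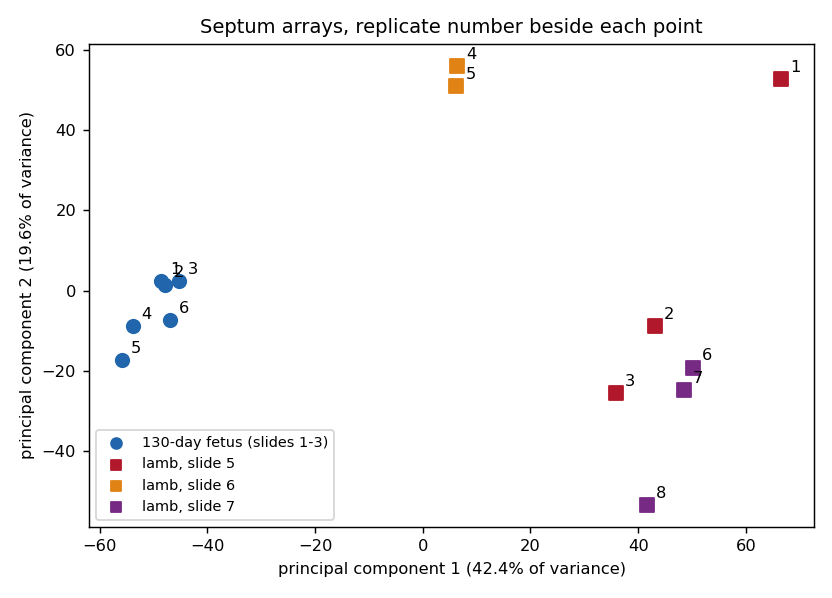
The 14 arrays on the first and second principal component of all tested log2 levels, with the share of variance on each axis; circles are fetuses and squares lambs, coloured by slide, with the replicate number beside each point. The first component (42.4%) separates the ages, and lambs 1, 4 and 5 lie above the other 5 lambs on the second (19.6%).

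The ages differed widely. Of the 12233 features, 4363 (35.7%) were called, 1641 (13.4%) higher and 2722 (22.3%) lower in lambs, and 1717 calls were over 2-fold, 274 up and 1443 down. Among named genes 312 were called, 117 higher and 195 lower. Counts of called members of a gene list below are to be set against 13.4% higher and 22.3% lower over all features. The arrays of the ages did not overlap at 1679 features (13.7%). Of the calls, 96.2% had the same sign on each of the 3 lamb slides. The calls were made on these same lambs, so much of this agreement was fixed by the selection. No lamb slide held a fetus, so it cannot separate age from slide. Among further probes of called genes, 164 of 178 (92.1%) had the sign of the main probe.

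The excess of falls sat among dim probes. In the dimmest quartile of the features 98 were called higher and 1032 lower, with a median change of -0.51; in the brightest quartile 674 were called higher and 439 lower, with a median of 0.11. When background was corrected with normexp, which models it from the local background signal, the dimmest quartile had a median change of 0.71, with 117 called higher and 7 lower. Normexp moved the median change of all features from -0.08 to 0.30. It adds an offset of 50 before each array's 75th percentile is subtracted. In log2 processed signal that percentile averaged 10.2 ± 0.13 (SD, n = 6) in fetuses and 9.64 ± 0.62 (SD, n = 8) in lambs (exact permutation test, two-sided, p = 0.0613). Its part in the normexp changes of dim probes was not tested. The share of calls that were higher in lambs was 37.6% in the processed signal, 62.2% with normexp, 52.3% with quantile normalization, 58.1% with median scaling and 48.4% in the deposited table of the authors. Calls of falls among dim genes thus depended on the background correction, whereas 1558 features (12.7%) were called with one sign under all 5 treatments, 1058 higher and 500 lower. These are referred to below as stable calls; among named genes there were 119, 80 higher and 39 lower. The deposited table of the authors held 9654 of the tested features, and a feature missing from it could not be a stable call. The 12.7% is a share of all tested features, the missing ones included. For a missing feature, the lack of a stable call is therefore no sign that its call depended on the treatment.

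With scan date as a random block (correlation 0.412 between arrays of a date), 424 features (3.47%) were called, 98 higher and 326 lower, including 46 named genes. This block assumes that date effects vary at random, and each date held only 1 age. Where a gene below was called in this fit too, it is said so.

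**Figure D2:**
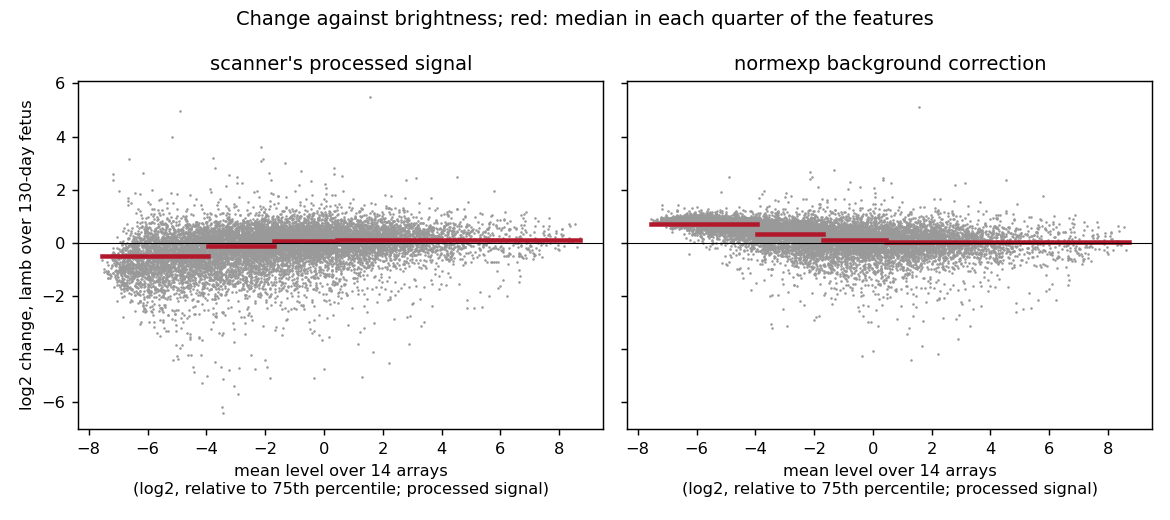
Log2 change, lamb over fetus, of each tested feature against its mean log2 level over the 14 arrays, for the processed signal and for normexp. Red bars mark the median in each quartile of the features. In the dimmest quartile the median is -0.51 with the processed signal and 0.71 with normexp, and in the brightest 0.11 and 0.01.

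Several genes that bring fatty acids into the cell and into mitochondria were higher in lambs. Of 11 tested genes of fatty acid uptake and oxidation, 5 rose (13.4% of all features rose), 0 fell and 6 did not pass the test. The median change was 0.63, against -0.08 over all features (0.42 above all features with normexp), and all 5 rises were stable calls. FABP5, a cytosolic fatty acid carrier, had the smallest adjusted p of the list. It measured 2.47, 2.69 and 2.88 in the fetuses (lowest, median and highest) and 3.90, 4.45 and 4.70 in the lambs, so every lamb lay above every fetus. The change was 1.67 ± 0.15 (SE), 3.19-fold, with an adjusted p of 7.07e-06, and it was called with the scan-date block (adjusted p = 0.013). The median of the term fetuses was 3.00, nearer the younger fetuses than the lambs. Its 60-base probe, shown because the gene leads this group, is printed 5′ to 3′ as in the array design.
FABP5: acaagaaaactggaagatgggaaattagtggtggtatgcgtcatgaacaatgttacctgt

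CPT1A and CPT1B, the liver and muscle forms of the carnitine palmitoyltransferase that admits long-chain fatty acids to mitochondria, both rose. CPT1A measured -3.09, -2.33 and -0.70 in fetuses and -0.73, -0.13 and 0.28 in lambs, 3.85-fold higher (log2 change 1.94 ± 0.33 SE, adjusted p = 0.000583); the highest fetus just passed the lowest lamb. CPT1B measured 2.04, 2.28 and 2.67 in fetuses and 2.93, 3.11 and 3.75 in lambs, without overlap, a change of 0.91 ± 0.15 (SE) with an adjusted p of 0.000514. At term the median of CPT1B was already 2.98, while that of CPT1A was -1.98, close to the younger fetuses. LPL, the lipase that frees fatty acids from circulating triglyceride, measured 1.20, 1.27 and 2.30 in fetuses and 2.35, 2.78 and 3.2 in lambs. It was 2.49-fold higher (adjusted p = 0.00019), and the highest fetal value was that of fetus 2, apart from the other 5. PPARG, a nuclear receptor for fatty acids, rose by 0.94 ± 0.27 (adjusted p = 0.0128). PPARA (0.36), PPARGC1A (0.03), PLIN2 (0.18), PLIN5 (0.63), DGAT1 (0.33) and FABP4 (-0.06), which act in transcription and storage of fat, did not pass the test. Leaving out 1 animal brought a call for PLIN5 (without fetus 2 or lamb 8), DGAT1 (without lamb 4, 5 or 8, and without lambs 1, 4 and 5) and PPARA (without lamb 4).

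Lipid synthesis did not move as a block. Of 8 tested genes, 1 rose, 3 fell and 4 did not pass the test, with a median of -0.40; relative to all features this was -0.33, and 0.16 with normexp. The rise was that of ACSS2, which turns acetate into acetyl-CoA, a main fuel and lipid precursor of ruminants. ACSS2 measured -2.05, -1.82 and -1.40 in fetuses and -0.92, 0.70 and 1.48 in lambs. No lamb reached down to the fetal range, and the change of 2.32 ± 0.28 (SE) was 5.00-fold, with an adjusted p of 6.48e-05 and of 0.0327 with the scan-date block. SQLE, an enzyme of cholesterol synthesis, fell by 0.89 on the log2 scale (adjusted p = 0.0151), a stable call that stood at -0.53 without lambs 1, 4 and 5. FASN, fatty acid synthase, changed by -1.27 (adjusted p = 0.00116), but it is dim, and with normexp it stood at 0.36, not called. The ACSS2 probe, shown because the gene had the largest rise among the metabolic genes listed here, reads as follows.
ACSS2: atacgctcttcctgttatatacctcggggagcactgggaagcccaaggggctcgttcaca

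Some mitochondrial carriers and a channel rose, while subunits of the ATP synthase did not pass the test. Of 6 tested genes of oxidative phosphorylation and the citrate cycle, 2 rose and 0 fell, with a median of 0.37; relative to all features this was 0.45, and 0.39 with normexp. VDAC1, the main pore of the outer membrane, rose by 0.86 ± 0.22 (adjusted p = 0.00731), a stable call that stood at 0.51 without lambs 1, 4 and 5. SLC25A4, the ADP/ATP exchanger, rose by 0.71 ± 0.19 (adjusted p = 0.00996) and was not called with normexp (adjusted p = 0.0552). ATP5PO (0.04), ATP5MC1 (0.53), COX5A (0.21) and the transcription factor NRF1 (0.17) did not pass, although ATP5MC1 was called without lambs 1, 4 and 5 (0.99, adjusted p = 0.00217). Outside that list, SLC25A33, a mitochondrial pyrimidine nucleotide carrier, measured -1.84, -1.72 and -0.93 in fetuses and -0.65, -0.12 and 0.17 in lambs, without overlap. Its change of 1.42 ± 0.17 (SE, adjusted p = 6.48e-05) was also called with the scan-date block (adjusted p = 0.031). SLC25A26, the mitochondrial carrier of S-adenosylmethionine, rose by 1.02 ± 0.16 (adjusted p = 0.000262), and GRPEL1, a cofactor of mitochondrial protein import, by 0.88 ± 0.14 (adjusted p = 0.000271). Both were called with the scan-date block (adjusted p = 0.0496 and 0.0497). The SLC25 family of carriers as a whole, looked at after these values were seen, had 12 tested members, 5 called higher, 0 lower and 7 not called. These 5 include SLC25A33, SLC25A26 and SLC25A4, already seen to rise. Setting the count against the 13.4% of all features called higher is therefore no test of the family. Of the 5, 3 were stable calls. SOD2, the mitochondrial superoxide dismutase, rose by 1.25 ± 0.24 (adjusted p = 0.00124) over 13 arrays, since 1 fetal spot was an outlier and was left out.

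Of 13 tested genes of glucose uptake and glycolysis, 2 rose, 1 fell and 10 did not pass the test, with a median of 0.33; relative to all features this was 0.40, and -0.06 with normexp. PYGM, muscle glycogen phosphorylase, rose by 0.57 ± 0.12 (adjusted p = 0.00234), a stable call. GAPDH rose by 0.55 ± 0.17 (adjusted p = 0.018), although only 2 of its 4 other probes had that sign. SLC2A1, the glucose transporter typical of the fetal heart, measured -2.96, -2.56 and -2.12 in fetuses and -4.77, -3.57 and -3.09 in lambs, without overlap. Its change of -1.17 ± 0.25 (adjusted p = 0.00217) was -0.20 with normexp, not called. SLC2A2, the glucose transporter of liver and pancreatic islets, which was not on that list, measured -3.2, -2.25 and -1.88 in fetuses and -5.75, -4.76 and -4.35 in lambs, without overlap. Its change of -2.45 ± 0.25 (adjusted p = 1.64e-05; 0.0241 with the scan-date block) was -0.81 with normexp, not called. SLC2A4, the insulin-sensitive transporter, stood at 0.51 and missed the threshold (adjusted p = 0.0722), and so did LDHA (0.36), ALDOA (0.40) and ENO3 (0.33). Leaving out 1 animal brought a call for SLC2A4 (without fetus 2 or lamb 1), ALDOA (without fetus 2, lamb 1 or lamb 5) and ENO3 (without lamb 8). ALDOA was called at 0.59 (adjusted p = 0.00363) without lambs 1, 4 and 5, and LDHA then stood at 0.00.

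Muscle proteins split. Of 6 tested genes on the list of contractile proteins, which also held MB and CRYAB, 3 rose, 2 fell and 1 did not pass. Relative to all features their median was 0.35, and -0.15 with normexp. MYH7 did not pass the test: it measured 1.43, 1.70 and 2.10 in fetuses and 0.77, 2.08 and 2.61 in lambs, a change of 0.04 ± 0.28 (SE). Its 3 lowest lambs were lambs 1, 4 and 5, and without these it was called at 0.53 (adjusted p = 0.0123). MB, the oxygen store of muscle, measured 7.83, 7.99 and 8.30 in fetuses and 8.34, 8.66 and 8.84 in lambs; it rose by 0.63 ± 0.12 (adjusted p = 0.000996), and with normexp the adjusted p was 0.0548. TPM1, tropomyosin, rose by 0.50 ± 0.14 and CRYAB, a small heat shock protein of the sarcomere, by 0.95 ± 0.25 (adjusted p = 0.0109 and 0.00814); neither was called with normexp.

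The falls were in fast skeletal muscle forms. MYL11, the regulatory light chain of fast skeletal myosin, measured 1.62, 2.19 and 2.91 in fetuses and -2.48, -1.51 and -0.35 in lambs. All lambs lay below all fetuses, at a change of -3.57 ± 0.31 (SE), 11.8-fold lower (adjusted p = 4.76e-06; 0.00505 with the scan-date block). Its median at term, 2.65, was not below that at 130 days. TNNC2, the troponin C of fast skeletal muscle, measured 3.52, 3.63 and 6.10 in fetuses and -0.58, -0.27 and 4.05 in lambs, a change of -2.87 ± 0.88 (adjusted p = 0.0193). Here the lambs formed 2 sets: lambs 1, 4 and 5 lay at 3.76, 4.05 and 3.62, within the range of the fetuses, and the other 5 between -0.58 and -0.25. Without lambs 1, 4 and 5 the change was -4.46 (adjusted p = 6.52e-06). The highest fetus was fetus 2. Of the 14 skeletal muscle markers 6 had a named probe and 3 could be tested, MYL11, TNNC2 and MYOD1, and all 3 were called lower; MYOD1, the master regulator of skeletal muscle, was well above background in 4 of 8 lambs, and its change of -0.94 turned to 0.51 with normexp, not called. The summed level of the skeletal markers ran from 3.91 to 6.22 in fetuses and from 0.05 to 4.12 in lambs; whether the septum samples differed in other muscle tissue was not tested. The TNNC2 probe, shown because its levels divide the lambs, ends on the stop codon of its open frame, in capitals.
TNNC2: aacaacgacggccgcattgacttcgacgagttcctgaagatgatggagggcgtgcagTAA

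Of 4 tested genes of calcium handling and excitation, 1 rose, 0 fell and 3 did not pass: the gap junction protein GJA1 (-0.17), calmodulin CALM2 (-0.19) and the pump subunit ATP1B1 (0.23). Without lambs 1, 4 and 5 GJA1 stood at -0.60 and was called (adjusted p = 0.0461).

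Growth factor genes changed in opposite directions. Of 16 tested genes of insulin and IGF signalling, 2 rose, 5 fell and 9 did not pass, with a median of -0.20; relative to all features this was -0.12, and 0.08 with normexp. IGF2, the main growth factor of fetal tissues, measured 6.65, 6.79 and 7.22 in fetuses and 4.80, 5.16 and 5.58 in lambs. Every lamb lay below every fetus; the change was -1.70 ± 0.15 (SE), 3.25-fold lower (adjusted p = 6.47e-06; 0.014 with the scan-date block). The median of the term fetuses, 6.10, lay between the groups. GHR, the growth hormone receptor, measured -1.92, -1.25 and -0.56 in fetuses and -0.67, -0.29 and 0.91 in lambs, a change of 1.19 ± 0.28 (SE, adjusted p = 0.00398) with a small overlap. IGF1R, the receptor of both factors, rose by 0.56 ± 0.15 (adjusted p = 0.0084). Both rises were stable calls. IGF1 stood at 0.65 ± 0.32 and missed the threshold (adjusted p = 0.128), but without lamb 4, which lay lowest at -4.18, it was called at 0.89 (adjusted p = 0.006), and without lambs 1, 4 and 5 at 1.07 (adjusted p = 0.0017). IGF2R, which removes IGF2, stood at -0.36 (adjusted p = 0.354).

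Of the binding proteins, IGFBP5 fell by 0.83 on the log2 scale (adjusted p = 0.00739), a stable call. IGFBP2 measured 1.59, 3.57 and 3.72 in fetuses and 0.04, 1.89 and 3.15 in lambs, a change of -1.47 ± 0.52 (adjusted p = 0.0391). Its lowest fetus was fetus 2 and its lowest lambs were lambs 1 and 4. Without lambs 1, 4 and 5 the change was -0.84 and the call was lost (adjusted p = 0.138); it was also lost when any 1 of 9 animals was left out, fetuses 1, 3, 4, 5 and 6 and lambs 1, 4, 6 and 7 (adjusted p from 0.0561 to 0.0805). CDKN1C, an imprinted inhibitor of the cell cycle, measured 2.75, 2.99 and 3.73 in fetuses and 2.15, 2.39 and 2.76 in lambs, and fell by 0.70 on the log2 scale (adjusted p = 0.00394), a stable call. MSTN, myostatin, which restrains muscle growth, was well above background in all 6 fetuses and in 0 of 8 lambs. Its level was at least 1.51-fold lower in lambs, a bound taken against the lowest signal well above background (adjusted p = 0.000163). This bound holds for the processed signal only. Normexp gave a log2 change of 0.63 and the authors' deposited values -0.05, neither of them called.

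**Figure D3:**
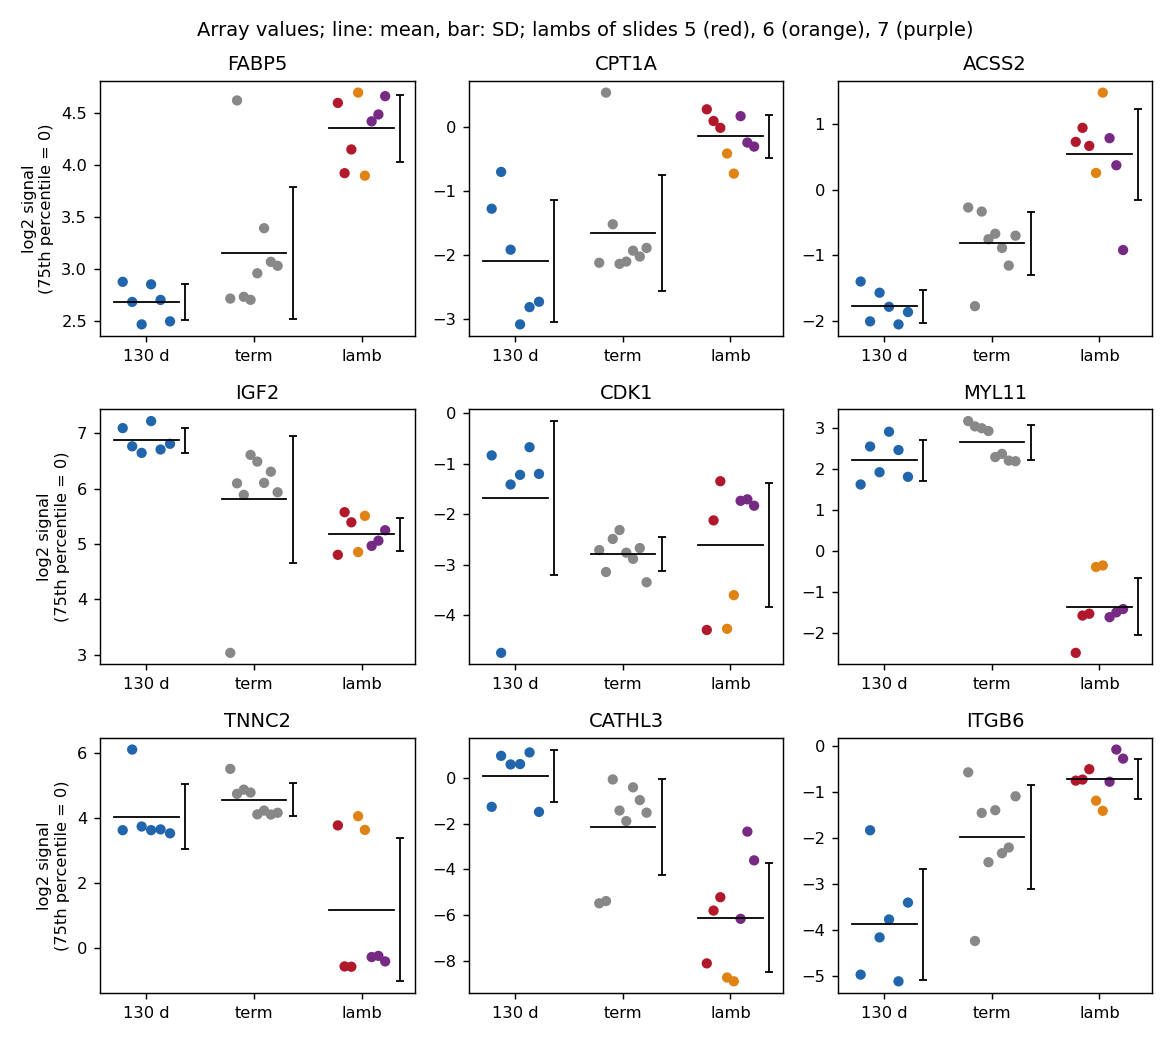
Log2 level of 9 genes on every array at 130 days, at term and in lambs; each point is an animal, the line is the group mean and the bar its SD, and lambs are coloured by slide. FABP5, ACSS2 and ITGB6 lie higher in every lamb than in every 130-day fetus, IGF2, MYL11 and CATHL3 lower, and fetus 2 stands apart for TNNC2 (high) and CDK1 (low), as do 3 of the lambs.

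Genes of cell division were called lower about as often as features at large, though their median change was lower. Fetus 2 stood against the other fetuses. Of 13 tested genes of the cell cycle and DNA replication, 0 rose, 3 fell (22.3% of all features fell) and 10 did not pass, with a median of -0.51; relative to all features this was -0.44, and -0.46 with normexp. AURKA, a mitotic kinase, fell by 1.41 on the log2 scale (adjusted p = 0.0132; -0.16 and not called with normexp) and H2AZ1, a variant histone, by 0.82 (adjusted p = 0.0153). CDKN1C, the inhibitor of the cycle described above, was the other. CDK1, the kinase that drives mitosis, measured -4.74, -1.21 and -0.68 in fetuses and -4.29, -1.98 and -1.35 in lambs, a change of -0.93 ± 0.66 (adjusted p = 0.294). The lowest fetal value was that of fetus 2, and the next fetus lay at -1.41; lambs 1, 4 and 5 lay lowest among lambs. CCNA2, cyclin A2, stood at -1.35 (adjusted p = 0.139), and TYMS, which makes thymidylate for DNA, at -0.81 (adjusted p = 0.261), with the same low fetus. PCNA, the sliding clamp of DNA replication, stood at -0.48 (adjusted p = 0.15). Without fetus 2 these 4 were called, with changes of -1.54 for CDK1 (adjusted p = 0.0327), -1.98 for CCNA2 (adjusted p = 0.0111), -1.26 for TYMS (adjusted p = 0.0414) and -0.65 for PCNA (adjusted p = 0.0469). In the fit without lambs 1, 4 and 5 they stood at -0.07, -0.53, -0.10 and -0.15 in the same order, and none was called (adjusted p from 0.533 to 0.941). Without lambs 1, 4 and 5, AURKA (-0.93, adjusted p = 0.0721) and H2AZ1 (-0.51, adjusted p = 0.0634) were no longer called. Of the listed genes of apoptosis, 4 of 9 rose (13.4% of all features rose) and 0 fell. Their median was 0.49 (relative to all features 0.57, and 0.46 with normexp). The rises included the survival factor MCL1 (0.89), BAX (0.73), which opens mitochondria in cell death, and the death receptor FAS (0.98). MCL1 measured -1.04, -0.85 and -0.62 in fetuses and -0.18, -0.01 and 0.34 in lambs, without overlap (adjusted p = 9.49e-05; 0.0383 with the scan-date block). A second probe of MCL1 had the opposite sign.

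Of 12 tested genes of glucocorticoid, mineralocorticoid and thyroid hormone signalling, 3 rose, 4 fell and 5 did not pass, and with normexp 2 rose and 1 fell. HSD11B1, the enzyme that regenerates active cortisol in cells, measured -3.16, -2.63 and -2.21 in fetuses and -2.09, -1.18 and -0.43 in lambs. It was 2.58-fold higher without overlap (log2 change 1.37 ± 0.27 SE, adjusted p = 0.00155). THRB, a thyroid hormone receptor, rose by 0.77 ± 0.15 (adjusted p = 0.00118); both rises were stable calls. HSD11B2, which inactivates cortisol, rose by 0.95 ± 0.30 (adjusted p = 0.0226; 0.0646 with normexp), a call that was lost without fetus 3 or fetus 4. The glucocorticoid receptor NR3C1 (-0.17, adjusted p = 0.787) and the mineralocorticoid receptor NR3C2 (-0.13, adjusted p = 0.772) did not pass, and the lambs diverged. Among the lambs of slide 7 alone both receptors stood above the fetuses, at 0.99 and 0.76 (adjusted p = 0.000784 and 0.00125). Lambs 1, 4 and 5 went the other way and lay below every fetus for both genes. For NR3C1 these lambs lay from -5.14 to -4.65, against -3.85 to -3.14 in fetuses. For NR3C2 they lay below the lowest fetus, at 2.67. PGR, the progesterone receptor, measured -8.64, -7.51 and -6.10 in fetuses and -5.36, -3.21 and -2.05 in lambs; it was well above background in 2 of 6 fetuses and all 8 lambs. Its change was 4.00 ± 0.56 (adjusted p = 0.00016) and 1.92 with normexp (adjusted p = 0.00118).

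Of 10 tested genes of adrenergic, muscarinic and angiotensin signalling, 0 rose, 4 fell (22.3% of all features fell) and 6 did not pass. Their median was -0.37. Relative to all features this was -0.30, and -0.12 with normexp. EDNRA, an endothelin receptor, measured 0.33, 0.61 and 0.93 in fetuses and -0.56, -0.30 and 0.48 in lambs, and fell by 0.76 on the log2 scale (adjusted p = 0.00241), a stable call although its second probe had the other sign. AGTR2, the angiotensin receptor typical of fetal tissue, measured -3.63, -2.56 and -1.85 in fetuses and -5.01, -4.32 and -3.53 in lambs, a change of -1.64 ± 0.28 (adjusted p = 0.000583). AGTR1, the angiotensin receptor that raises blood pressure, fell by 0.42 on the log2 scale (adjusted p = 0.0413), a call lost when any 1 of 10 animals was left out (adjusted p up to 0.108, without fetus 5). ADRB3, a beta-adrenergic receptor, changed by -1.70 ± 0.27 (adjusted p = 0.000329; 0.0367 with the scan-date block). With normexp AGTR2 stood at -0.44, AGTR1 at -0.44 and ADRB3 at -0.35, and none of them was called. ADRB1, the main beta receptor of heart muscle, stood at 0.31 (adjusted p = 0.461) and was called without lamb 8 (0.56, adjusted p = 0.0216).

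Endothelial genes were higher in part. Of 24 tested genes of endothelium and vessel growth, 7 rose (13.4% of all features rose), 1 fell (22.3% of all features fell) and 16 did not pass. Their median was 0.27. Relative to all features this was 0.35, and 0.22 with normexp. KDR, the main receptor of VEGF, measured -3.19, -2.58 and -2.03 in fetuses and -1.97, -1.55 and -1.25 in lambs, 2.01-fold higher without overlap (adjusted p = 0.001). FGF1, a growth factor of heart and vessels, measured 2.27, 2.73 and 3.23 in fetuses and 3.26, 3.44 and 3.71 in lambs (change 0.75 ± 0.15, adjusted p = 0.00145). FGF2 (0.78), the angiopoietin receptor TEK (0.83) and its ligand ANGPT2 (0.66) were stable rises as well, whereas PECAM1 (0.70), an adhesion protein of endothelium, and CAV1 (0.50), of caveolae, rose and were not called with normexp. ANGPT1, the other ligand of TEK, changed by -0.86 (adjusted p = 0.016) and stood at 0.28 with normexp. VEGFA itself (0.38, adjusted p = 0.361) did not pass. The TEK call was lost when any 1 of 9 animals was left out (adjusted p from 0.0517 to 0.089) and without lambs 1, 4 and 5 (0.43); ANGPT2 was lost without fetus 2, and PECAM1 without fetus 2 or lamb 6. The second probes of CAV1 and ANGPT1 had the opposite sign. Of 5 endothelial markers on the array, 3 rose and 0 fell, and their summed level ran from 1.50 to 2.29 in fetuses and from 1.98 to 3.21 in lambs. Whether the tissue held more endothelium was not tested.

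Matrix genes showed rises in integrins and an inhibitor, and no call among fibrillar collagens. Of 19 tested genes of the extracellular matrix and fibroblasts, 5 rose, 1 fell and 13 did not pass, with a median of 0.12; relative to all features this was 0.19, and 0.05 with normexp. ITGB6, an integrin subunit that binds and activates latent TGF-beta, measured -5.10, -3.96 and -1.83 in fetuses and -1.41, -0.74 and -0.08 in lambs, without overlap. The change of 3.15 ± 0.42 (SE) was 8.91-fold (adjusted p = 0.000113; 0.0505 with the scan-date block), and the term median, -1.83, lay between. Its partner ITGAV rose by 0.72 ± 0.19 (adjusted p = 0.00942). TIMP3, an inhibitor of matrix proteases, measured -3.15, -2.81 and -1.93 in fetuses and -1.85, -1.55 and -1.26 in lambs, 2.23-fold higher (adjusted p = 0.000326). All 3 were stable calls. COL1A2 (-0.08), COL3A1 (0.23) and the proteoglycan DCN (-0.45) did not pass, and 0 of 3 fibroblast markers were called; without lamb 8, DCN was called at -0.57 (adjusted p = 0.01). COL4A3, a basement membrane collagen, was well above background in 0 of 6 fetuses and in 5 of 8 lambs, and its level was at least 3.04-fold higher in lambs (adjusted p = 7.25e-05; 0.0367 with the scan-date block). That bound holds for the processed signal; the log2 change was 1.31 with normexp and 0.58 in the authors' deposited values.

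**Figure D4:**
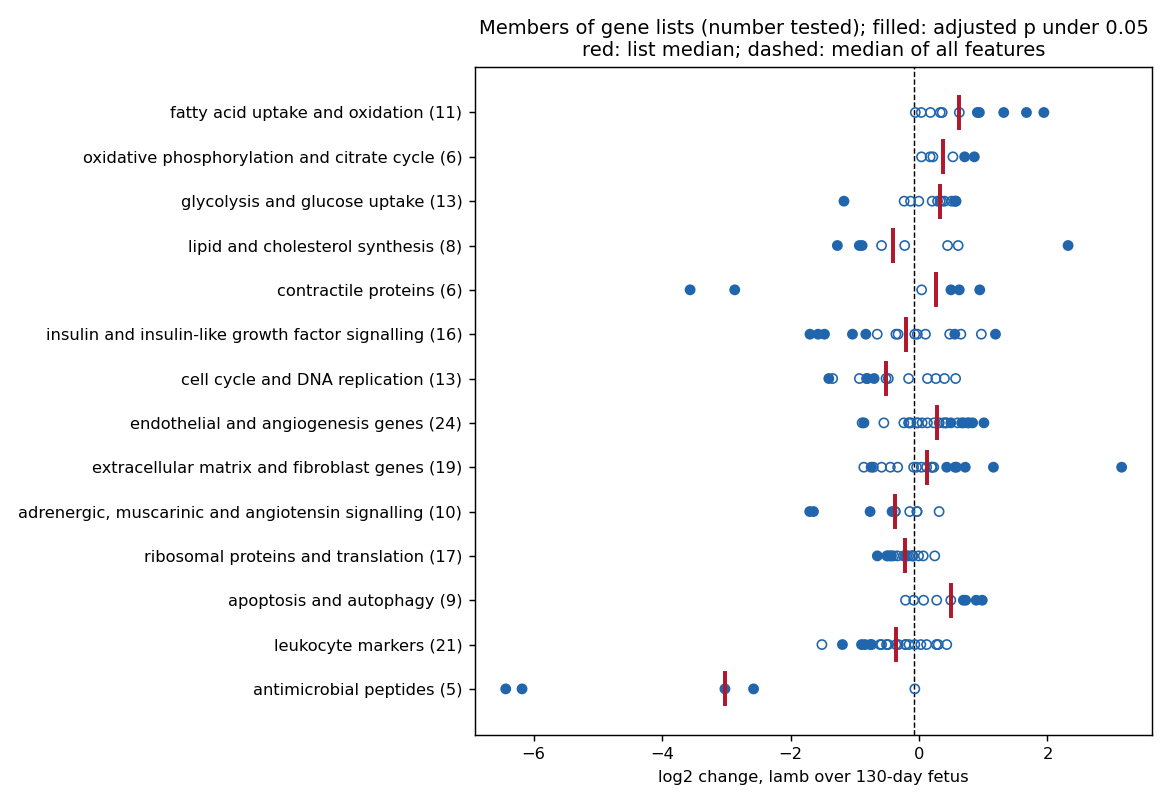
Log2 change, lamb over fetus, of each tested member of 14 gene lists, with the number tested beside the name; filled points have an adjusted p under 0.05, red bars are list medians and the dashed line is the median of all features, -0.08. Fatty acid uptake and oxidation has 5 called rises and no called fall, and antimicrobial peptides 4 called falls and no called rise.

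Cathelicidins of neutrophil granules showed the largest falls among named genes in the processed signal, though not with normexp or in the authors' deposited values, where PRLH, described below, fell further. Of 5 tested antimicrobial genes, 0 rose and 4 fell, and with normexp 3 fell. These antimicrobial peptides, made by neutrophil precursors in bone marrow, were near background in many lambs. CATHL1B measured -1.37, 0.67 and 1.45 in fetuses and -7.88, -6.72 and -3.54 in lambs, a change of -6.44 ± 0.77 (SE), with an adjusted p of 5.82e-05. CATHL3 measured -1.49, 0.59 and 1.1 in fetuses and -8.88, -5.98 and -2.35 in lambs, a change of -6.18 ± 0.96 (adjusted p = 0.000291). No lamb reached the fetal range for either. BAC5 (-5.69, adjusted p = 0.000163), which was not on that list, and SC5 (-3.02, adjusted p = 3.73e-05) are cathelicidins too and also fell. All 4 cathelicidins were stable calls and were called with the scan-date block (adjusted p from 0.031 to 0.0419). Of the 4 falls on the list, 3 were stable calls. Lamb signals were so near background that the size depended on its correction. With normexp the changes were -3.23 for CATHL1B, -3.08 for CATHL3, -3.13 for BAC5 and -1.35 for SC5. CATHL1B was well above background in 3 of 8 lambs, CATHL3 in 4 and BAC5 in 5. The cathelicidin genes are close copies, so their probes may share signal. LTF, lactoferrin, another granule protein, was well above background in 5 of 6 fetuses and 0 of 8 lambs. It was at least 2.31-fold lower (adjusted p = 0.00318), a bound that holds for the processed signal only. The log2 change of LTF was 0.32 with normexp and -0.49 in the authors' deposited values. LYZ, lysozyme of macrophages, did not pass (-0.07). The summed level of the 3 neutrophil markers ran from -0.40 to 2.31 in fetuses and from -6.78 to -1.79 in lambs; the part of blood cells left in the tissue was not tested.

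Red cell genes were less uniform. AHSP, the chaperone of alpha globin in red cell precursors, measured -3.2, -2.50 and -2.34 in fetuses and -8.90, -7.38 and -4.48 in lambs, without overlap. Its change was -4.43 ± 0.63 (adjusted p = 0.000168; 0.0417 with the scan-date block). With normexp it was -0.76 and not called (adjusted p = 0.174), and 2 of 8 lambs were well above background. HBB, beta globin, ran from 4.05 to 5.81 in fetuses and from 0.13 to 6.82 in lambs, a change of -1.29 ± 0.94 (adjusted p = 0.304). Lambs 1 and 4 had the lowest HBB, 0.13 and 0.42, and lamb 8 the highest; without lambs 1, 4 and 5 the change was 0.17. The AHSP probe, shown because its fall holds only in some treatments of background, has 45.0% GC, near the median of 43.3% over all features tested.
AHSP: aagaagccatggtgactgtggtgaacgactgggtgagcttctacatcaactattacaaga

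Of 21 tested leukocyte markers, 0 rose, 4 fell (22.3% of all features fell) and 17 did not pass, and with normexp 0 fell. Leukocyte markers were thus called lower no more often than features at large. The T cell genes CD3E (-0.90) and CD5 (-1.19) were among the falls (adjusted p = 0.0413 and 0.0261). The CD3E call was lost when any 1 of 9 animals was left out and without lambs 1, 4 and 5, and the CD5 call without fetus 3 or fetus 5. GNLY, granulysin of cytotoxic lymphocytes, went the other way. It measured -4.49, -4.36 and -3.53 in fetuses and -3.96, -2.08 and 0.07 in lambs, 4.75-fold higher (adjusted p = 0.00134), a stable call with overlap of 1 lamb; only 1 of its 2 other probes had that sign. B2M, the light chain of class I antigen-presenting molecules, rose by 0.87 ± 0.27 (adjusted p = 0.0218; 0.0675 with normexp; lost without fetus 1, 4 or 6, and without lambs 1, 4 and 5), and FCGRT, the receptor that carries antibodies and albumin, by 0.84 ± 0.11, without overlap (adjusted p = 9.61e-05; 0.0403 with the scan-date block). Of 20 tested cytokine, chemokine and acute phase genes, 2 rose and 7 fell, against 13.4% and 22.3% of all features. Their median was -0.41, and with normexp 1 rose and 0 fell. IL10, an anti-inflammatory cytokine, changed by -1.72 (adjusted p = 0.00222) and stood at 0.39 with normexp, not called; it was well above background in 3 of 8 lambs. Of 12 tested genes of the interferon response, 2 rose, 2 fell and 8 did not pass. IFNAR2, a chain of the interferon receptor, rose by 0.71 ± 0.16 (adjusted p = 0.00311), a stable call. ISG15 lay at 5.40 in fetus 3 and MX1 at 3.86, against highest values of 3.17 and 1.32 in the other fetuses, and neither changed beyond the spread (-0.93 and -0.63, adjusted p = 0.385 and 0.414). CXCL10, an interferon-induced chemokine, changed by -2.34 (adjusted p = 0.0423), and the call was lost when any 1 of 8 animals was left out, at -1.58 without fetus 3 (adjusted p = 0.0845), and without lambs 1, 4 and 5. CXCL1, a neutrophil chemokine, stood at -1.48 and missed the threshold (adjusted p = 0.0551); it was called without lamb 2, 3 or 7.

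Several peptide hormone genes were lower in lambs. Of 10 tested nerve and neuroendocrine genes, 0 rose, 7 fell and 3 did not pass, with a median of -1.61; with normexp 3 fell, and the median relative to all features was -0.60, against -1.54 with the processed signal. PRLH, the prolactin-releasing peptide, had the smallest adjusted p of all named genes. It measured 2.36, 2.67 and 3.34 in fetuses and -3.18, -2.08 and -1.29 in lambs, so the groups lay far apart. The change was -4.78 ± 0.28 (SE), 27.5-fold lower (adjusted p = 4e-07; 0.00156 with the scan-date block), and -4.10 with normexp. At term the median was 3.05, as high as at 130 days, on arrays of the same scan date. CALCA, which codes for calcitonin and the vasodilator CGRP, measured -0.17, 0.31 and 1.66 in the 4 fetuses whose spot was not an outlier and -4.72, -3.71 and -3.59 in the 8 lambs, a change of -4.41 ± 0.31 (adjusted p = 3.02e-06; 0.00384 with the scan-date block). OXT, oxytocin, measured -0.19, 0.22 and 0.61 in fetuses and -2.79, -1.74 and -0.67 in lambs (change -1.85 ± 0.28, adjusted p = 0.000222). It was called with the scan-date block too. POMC, the precursor of ACTH, changed by -1.59 ± 0.38 (adjusted p = 0.00456), with fetus 2 far above the others at 2.45. These 4 were stable calls; NPY, which sympathetic nerves release, changed by -1.06 (adjusted p = 0.00428) and was not called with normexp. ASIP, agouti signalling protein, lay between 4.83 and 5.27 in fetuses and between 4.08 and 5.22 in 6 lambs, while lambs 3 and 8 lay at -4.70 and -5.51. Its change of -2.97 ± 1.67 did not pass (adjusted p = 0.18).

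**Figure D5:**
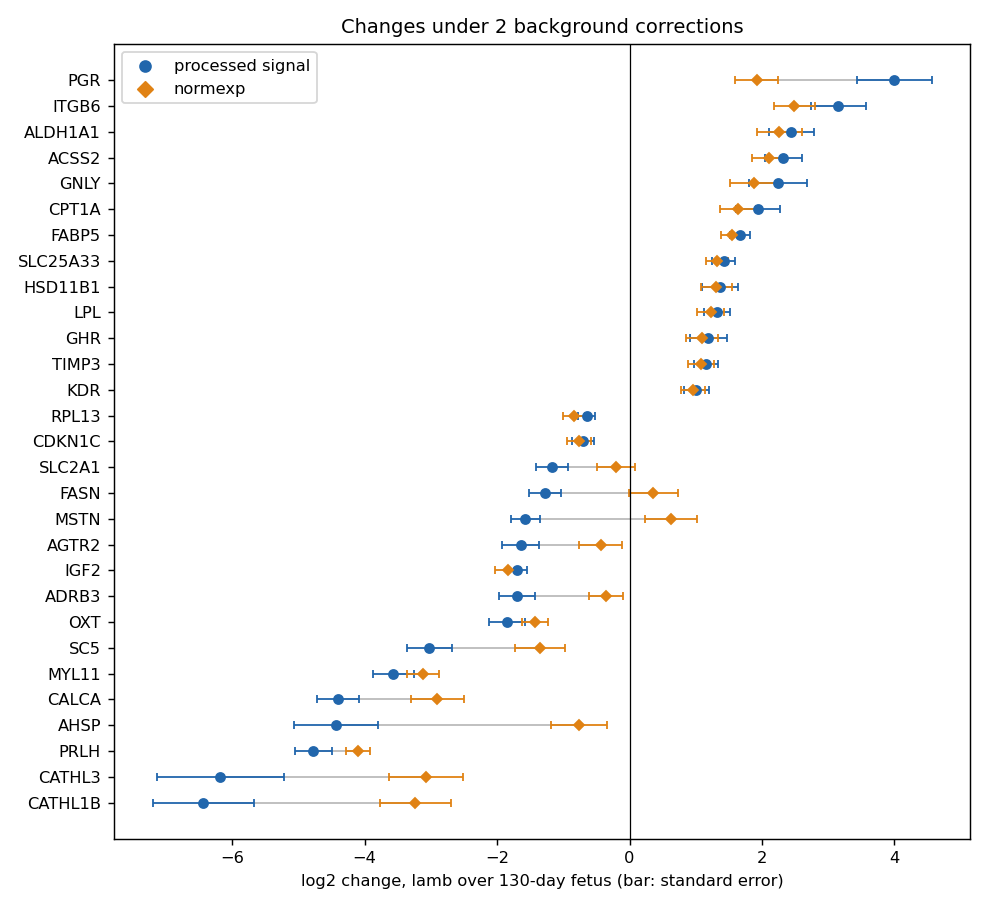
Log2 change, lamb over fetus, of 29 named genes with the processed signal (circles) and with normexp (diamonds), each with its standard error. Rises such as FABP5 (1.67 and 1.54) and falls such as IGF2 (-1.70 and -1.84) keep their size, the cathelicidins shrink (CATHL1B -6.44 and -3.23), and FASN and MSTN change sign.

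Several genes outside these groups were among the largest changes. ALDH1A1, which makes retinoic acid, measured 0.81, 1.78 and 2.95 in fetuses and 2.87, 4.30 and 4.76 in lambs, 5.44-fold higher (adjusted p = 0.000159). TUBA4A, a tubulin, was 3.83-fold higher (adjusted p = 0.000753), and INHA, the inhibin alpha chain, 3.35-fold (adjusted p = 0.00692), while INHBA, its beta A partner, fell by 1.16 on the log2 scale (adjusted p = 0.0213). The INHBA call was lost without fetus 1, without fetus 5 and without lambs 1, 4 and 5 (-0.89, adjusted p = 0.0758). ABCB1, a drug efflux pump of endothelium, was 4.07-fold higher (adjusted p = 0.0151), with lamb 8 below all fetuses at -6.65, and was lost without lambs 1, 4 and 5 (1.53, adjusted p = 0.0779). EGFR, a growth factor receptor, rose by 0.73 ± 0.10 without overlap and was called with the scan-date block (adjusted p = 0.0397). AQP8, a water channel, measured 0.13, 0.43 and 0.82 in fetuses and -3.24, -1.94 and -1.39 in lambs, 5.65-fold lower (adjusted p = 1.07e-05; 0.0213 with the scan-date block). CCL25, a chemokine of thymus and gut, was 3.10-fold lower without overlap (adjusted p = 2.77e-05; 0.0173 with the scan-date block). Of 17 tested ribosomal protein and translation genes, 0 rose, 3 fell (22.3% of all features fell) and 14 did not pass, with RPL13 at -0.65 (adjusted p = 0.00105), RPL4 at -0.43 (adjusted p = 0.0064) and RPSA at -0.48 (adjusted p = 0.0329); the RPSA call was lost when any 1 of 6 animals was left out (adjusted p up to 0.0726) and without lambs 1, 4 and 5.

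Probes without a gene name were among those with the smallest adjusted p. The unnamed probe with the smallest adjusted p among rises, A_70_P030641, measured -2.15, -1.65 and -0.52 in fetuses and 2.51, 4.04 and 4.83 in lambs. It was 45.1-fold higher (log2 change 5.49 ± 0.38 SE, adjusted p = 9.35e-07; 0.00384 with the scan-date block), and its term median was 1.43. A_70_P049161 rose by 2.48 ± 0.20 (adjusted p = 2.96e-06). Among falls, A_70_P047866 changed by -5.12 ± 0.33 and A_70_P065471 by -2.10 ± 0.13, both with an adjusted p of 5.82e-07. The groups did not overlap at any of these 4 probes. The sequence of the first is shown since its rise is larger than that of any named gene listed above and it could not be given a gene here.
A_70_P030641: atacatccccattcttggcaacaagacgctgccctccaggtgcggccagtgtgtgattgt

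Lambs of 1 age also differed between slides. Among the 8 lambs alone, 692 features (5.66%) differed between slides 5, 6 and 7 by the limma F test, 4 with normexp and 981 in the authors' deposited values. HR, a corepressor of nuclear receptors, had means of -3.33 on slide 5, -1.65 on slide 6 and -3.56 on slide 7, all below the fetal range of -0.74 to -0.30; it was 5.48-fold lower in lambs (adjusted p = 0.000133; 0.0223 with the scan-date block). RPL14, a ribosomal protein gene that was not on the list above, had means of 5.30, 4.28 and 5.75 against a fetal median of 4.56, so its call (0.65, adjusted p = 0.0499) rested on slides 5 and 7 and was lost when any 1 of 12 animals was left out (adjusted p from 0.0601 to 0.0919); it stood at 0.99 without lambs 1, 4 and 5.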

How the data were processed

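RNA of 6 septa at 130 days of gestation and 8 septa of 14-day lambs was analysed from 14 single-colour scanner files. The authors extracted intensities with Agilent Feature Extraction 10.1.1.1, and the tool limma is named, per the submitters' processing notes. The deposited intensity per spot is the processed signal, background-corrected by that software. The authors' deposited value table holds log2 values of 10089 probes; compared with the scanner files it lay closest to quantile-normalized log2 mean signal (mean absolute difference 0.0531, lowest correlation 0.998), uncentred, with medians from 8.75 to 8.83; its exact steps are not given in the sources used here.

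Here log2 processed signal less each array's 75th percentile was used. Control and outlier spots were left out, spots of a probe were averaged, and a gene with several probes was given by its brightest. Features well above background on at least a 0.5 share of the arrays of either group were tested with limma 3.58.1 in R 4.3.3 (two-sided, Benjamini-Hochberg, threshold 0.05). Arrays limit the precision by their number, and 0 spots were saturated. Bounds are the bright group's mean against the higher of the dim probe's own signal and the lowest signal well above background, per array. Probes were named from the array's design names and RefSeq names; 726 of 750 RefSeq accessions matched. Probe sequences come from the array design in the scanner files.

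Alternatives were normexp (offset 50), quantile and median scaling, the authors' values, other filters, probe averaging, slide or scan date as a random block, array weights, and arrays left out. Same-numbered animals are different animals; correlations of their deviations ran from -0.16 to 0.11, so numbers were not treated as pairs. The fit was tested on simulated data.

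The comparison and the gene lists were chosen with earlier results of these data known. Genes named are the 12 largest changes each way among called genes bright in both groups, up to 6 bounded changes each way, the 12 of smallest adjusted p each way with the scan-date block, members of the lists and markers, the 8 genes differing most between lamb slides, and at most 2 unnamed probes each way. A few genes are not reported here.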

Additional observations from a re-analysis of the deposited data

Results flagged for a closer look

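Of 274 groups of values of the named genes, 29 held a single array farther from the rest than Dixon's 95% criterion allows. The criterion by itself passes about 1 in 20. Over all features tested, fetus 2 stood alone at 3.01%, lamb 8 at 4.52% and each other array at 0.221% to 1.34%. The 29 groups were not tested against these shares. Fetus 2 made 12 of the 29. It was high for LPL (2.30), PLIN5 (-2.02), SLC25A33 (-0.93), SLC25A26 (-1.98), TNNC2 (6.10) and POMC (2.45), and low for IGFBP2 (1.59), INHBA (-1.62), PECAM1 (1.25) and the division genes CCNA2 (-5.04), CDK1 (-4.74) and TYMS (-4.61).

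Lamb 8 made 5, low for ENO3 (3.32), IGF2R (-1.74), ADRB1 (-3.42) and ABCB1 (-6.65) and high for ATP1B1 (6.32). Other lambs apart from their group were lamb 1 for AQP8 (-3.24), lamb 4 for IGF1 (-4.18) and COL1A2 (-3.31), lamb 5 for IGF1R (-0.42), lamb 6 for NRF1 (-4.09) and lamb 7 for LYZ (-4.52).

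Among the other fetuses, fetus 3 was high for the interferon gene MX1 (3.86) and low for CRY1 (-2.42), fetus 4 high for DCN (5.99) and RPL13 (6.14), fetus 5 high for AGTR1 (1.44) and fetus 6 high for GNLY (-3.53).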

How the results depend on the processing

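Calls numbered 4363, and 2277 with normexp and 424 with the scan-date block; leaving out each animal in turn gave 3749 to 4756. Rises numbered 1641, with 2721 under median scaling, 1054 with slide as a random block, 98 with the scan-date block, 2607 with array weights, and 1352 to 1861 without each animal. Falls numbered 2722, with 861 under normexp, 1763 in the authors' values, 1712 among features well above background on all 14 arrays, 326 with the scan-date block, and 2337 to 2895 without each animal. Calls over 2-fold numbered 1717, with 580 under normexp, 504 in the authors' values, 894 among features well above background on all 14 arrays, 359 with the scan-date block, and 1576 to 1790 without each animal. Features differing between lamb slides fell from 692 to 4 with normexp. The normexp counts ran with a median change moved from -0.08 to 0.30; the cause of the other shifts was not tested. Without lambs 1, 4 and 5, chosen after seeing the data, 5262 were called.

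Sign changes of a named gene, where it was called with the processed signal or under the alternative, were found with normexp for FASN (0.36), IL10 (0.39), MSTN (0.63), ANGPT1 (0.28), CD5 (0.076), LTF (0.32), PER3 (0.53) and MYOD1 (0.51), in the authors' values for ATP5PO (-0.34), with the lambs of slide 6 alone for MYH7 (-0.74) and RPL14 (-0.28), with the lambs of slide 7 alone for NR3C1 (0.99) and NR3C2 (0.76), and with the mean of all probes for CAV1 (-0.13) and MCL1 (-0.48). Their cause was not tested.

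With replicate number as a block, 3657 were called (1293 higher, 2364 lower, 1628 over 2-fold); the numbers name different animals, so this is no paired analysis. Signal over background limits the dim genes, whose falls differed between background corrections.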

Other observations

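Clock genes were lower in lambs in the processed signal: of 6 tested, 0 rose and 4 fell, against 22.3% of all features, and with normexp 0 were called. Relative to all features their median was -0.50, and -0.23 with normexp. PER2 changed by -0.55, CRY1 by -0.61 and PER3 by -1.21 (adjusted p = 0.0041, 0.0019 and 0.00164); PER3 stood at 0.53 with normexp, and the second probe of CRY1 had the other sign; the hour of collection is not given in the sources used here. Of 24 tested genes of TGF-beta, activin and BMP signalling, 3 rose and 7 fell, against 13.4% and 22.3% of all features. Their median was -0.17, and with normexp 3 rose and 0 fell. The rises were INHA, TGFB3 (0.89, adjusted p = 0.015) and the activin receptor ACVR2A (0.42, adjusted p = 0.0336; lost when any 1 of 7 animals was left out; its second probe had the other sign).

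Developmental signals changed singly. WNT5A, a secreted signal of heart and limb growth, measured -1.04, -0.70 and -0.53 in fetuses and -2.18, -1.79 and -1.21 in lambs, without overlap (2.03-fold lower, adjusted p = 0.000331). JAG1, a Notch ligand, rose by 0.58 (adjusted p = 0.0193), a call lost without fetus 5 (adjusted p = 0.0528) and without lambs 1, 4 and 5. MET, the receptor of hepatocyte growth factor, changed by -1.55 (adjusted p = 3.65e-05; 0.0213 with the scan-date block) and stood at -0.23 with normexp, not called. CEBPB, a transcription factor of fat and inflammation, was 2.46-fold higher (adjusted p = 0.00995), and TF, transferrin, 1.85-fold (adjusted p = 0.0072). JUN, an immediate early gene, fell by 0.88 on the log2 scale (adjusted p = 0.0189), while its second probe had the other sign; without lambs 1, 4 and 5 it stood at -0.42.

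Probes at both ends of GC content were more often called lower than the 22.3% of all: 69.0% of the 29 tested features with over 60% GC and 83.3% of the 6 at or under 30% GC, with median changes of -1.01 and -1.14. The part of composition in the falls was not tested.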
